A study of Mus musculus with 8 samples.

Results

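T cell and cytotoxic lymphocyte genes were followed through 8 Affymetrix arrays of sorted mouse keratinocytes. The 38 genes were listed by symbol, with earlier results of these data known, and 37 of them had a probe set (a group of probes read as 1 value) assigned to that gene alone, among 19938 genes measured; Lck was not analysed here. They comprise the CD3 complex and coreceptors, the adapters and kinases below the T cell receptor, surface antigens, costimulatory and activation genes, cytokine receptors, cytotoxic granule and effector genes, and receptors shared with natural killer (NK) cells. All mice were CD1, aged 8 weeks, of both sexes, and the cells were keratinocyte preparations from trypsin-treated back skin. Wild type mice were compared with K14Snail mice, in which the transcription factor Snail is expressed from the keratin 14 promoter, active in basal keratinocytes and not in lymphocytes. Cells were selected with magnets and an antibody against CD34, carried by stem cells of the hair follicle bulge, or against Mts24, an epitope of the Plet1 product in the upper follicle. Both what the magnet held (positive fraction) and what it left (negative fraction, the study's control) were profiled. Each of the 8 combinations of genotype, marker and fraction had 1 array, from a pool of 11 mice for CD34 and of 9 mice for Mts24. The labels name no step that selects on a lymphocyte antigen. Any cell that the magnet did not hold, of whatever type, counts in the negative fraction.

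Mouse epidermis holds resident T cells that sit between keratinocytes. Most are dendritic epidermal T cells, which carry a gamma-delta T cell receptor, the CD3 signalling chains and NK-type receptors, lack CD4 and CD8, and can release perforin and granzymes. The T cell receptor signals through the CD3 and CD247 chains, the kinases Lck and Zap70 and the membrane adapter Lat; interleukin 15, read through Il2rb, sustains these cells in skin.

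Values are deposited log2 levels, so a difference of 1 is a doubling; they compare arrays for 1 gene and not genes with each other. Each contrast uses the other factor as its replicates: CD34 or Mts24 positive against negative rests on 2 pairs of arrays, 1 per genotype, and K14Snail against wild type on 4 pairs. Labels name no separate cultures or pools within a group, and each group has 1 array. A p-value therefore rests on how far the genotype difference varies between fractions. That mixes technical spread with any real difference of this kind. The targeted gene checked the labels: Snai1 was at 10.84 to 11.04 in the K14Snail arrays and at 7.86 to 8.16 in wild type. Cd34 was 7.24 ± 0.23 (moderated SE) higher in CD34-positive than CD34-negative cells, and Plet1 was 3.22 ± 0.19 higher in Mts24-positive than Mts24-negative cells. The 2 sorts were not exclusive. Cd34 read 12.12 and 11.56 in Mts24-positive and 10.03 and 10.51 in Mts24-negative cells, wild type first. Plet1 read 11.15 and 11.22 in CD34-negative cells, above both Mts24-negative arrays (9.91 and 9.16). The keratin gene Krt5 was at 13.68 to 13.87 in every array. The 28 measured genes specific to other organs, such as liver or pancreas, read 3.99 to 7.90 with a median of 6.23. This range was taken as the background of the arrays. Its upper end rests on 1 gene, Prm2 (7.58 to 7.90), and the next highest, Apoa1, reached 7.56. Of the 37 members, 20 exceeded 7.90 in some array and 17 in none, and 30 had no positive-fraction array above it; Cd7 alone exceeded it in all 8 arrays. The size of a difference is therefore uncertain, and may be understated, where the lower arrays lie within that range.

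The stretches around the transcription starts of 5 members are shown because these genes fell together in both positive fractions. Cd3g, Cd3d and Cd3e are neighbours on chromosome 9, with 0 protein-coding genes between Cd3g and Cd3d or between Cd3d and Cd3e. Nkg7 and Prf1 are the granule genes described further on. Each sequence runs from 250 bases before to 50 bases after the start, 5′ to 3′ on the gene's strand, from RefSeq (GRCm38.p6, mouse). Capitals mark 3 words on either strand: AGGAAG or CTTCCT, of the type bound by Ets factors; TGTGGT or ACCACA, of the type bound by Runx factors; and CACCTG or CAGGTG, an E-box.
Cd3g (chr9:44980382-44980681, minus strand): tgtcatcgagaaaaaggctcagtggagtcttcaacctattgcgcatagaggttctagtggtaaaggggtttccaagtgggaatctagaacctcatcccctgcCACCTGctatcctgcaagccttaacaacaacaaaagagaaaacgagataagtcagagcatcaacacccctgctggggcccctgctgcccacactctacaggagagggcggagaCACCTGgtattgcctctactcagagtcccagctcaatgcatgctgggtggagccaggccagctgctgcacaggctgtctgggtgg
Cd3d (chr9:44981536-44981835, plus strand): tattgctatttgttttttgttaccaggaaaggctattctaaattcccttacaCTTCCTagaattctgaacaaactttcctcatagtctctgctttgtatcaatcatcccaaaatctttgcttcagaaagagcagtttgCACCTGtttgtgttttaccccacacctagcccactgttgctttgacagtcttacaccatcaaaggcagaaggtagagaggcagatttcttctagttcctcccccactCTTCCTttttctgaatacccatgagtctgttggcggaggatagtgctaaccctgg
Cd3e (chr9:45009562-45009861, minus strand): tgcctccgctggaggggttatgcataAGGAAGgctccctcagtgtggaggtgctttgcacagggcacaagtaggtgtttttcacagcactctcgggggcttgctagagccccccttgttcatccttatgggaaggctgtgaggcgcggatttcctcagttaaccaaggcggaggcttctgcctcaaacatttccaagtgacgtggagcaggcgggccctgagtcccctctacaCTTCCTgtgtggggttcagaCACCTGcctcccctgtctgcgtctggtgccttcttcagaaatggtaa
Nkg7 (chr7:43436888-43437187, plus strand): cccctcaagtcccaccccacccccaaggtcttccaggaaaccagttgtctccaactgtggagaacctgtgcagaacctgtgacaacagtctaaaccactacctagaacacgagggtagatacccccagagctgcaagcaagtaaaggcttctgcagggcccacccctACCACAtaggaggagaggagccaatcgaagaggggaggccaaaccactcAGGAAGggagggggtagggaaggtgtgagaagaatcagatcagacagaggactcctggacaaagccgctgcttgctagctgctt
Prf1 (chr10:61297586-61297885, plus strand): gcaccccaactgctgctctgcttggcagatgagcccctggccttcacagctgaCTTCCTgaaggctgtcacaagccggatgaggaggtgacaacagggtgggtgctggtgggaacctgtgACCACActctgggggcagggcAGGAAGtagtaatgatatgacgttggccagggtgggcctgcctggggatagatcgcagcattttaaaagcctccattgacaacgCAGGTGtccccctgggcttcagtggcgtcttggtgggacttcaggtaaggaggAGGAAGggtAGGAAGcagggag
No marked words overlap in these windows. Over the 32 start windows of the 25 members with an entry, the Ets-type word stood in 19 windows, against 35.4% of all 32851 windows. The Runx-type word stood in 16 member windows, against 16.8% of all, and the E-box word in 10, against 20.2%. Among words with other roles, the GC box GGGCGG stood in 3 member windows, against 35.7% of all, and TATAAA in 5, against 13.6%. These 5 words were picked after 10 had been counted, so the counts are a description, and a match is not a binding site.

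Many of the T cell and cytotoxic transcripts were lower in both positive fractions than in the negative ones. By limma with Benjamini-Hochberg adjustment over all 19938 genes, 20 of the 37 members were lower in CD34-positive than CD34-negative cells and 0 higher, beside 6.92% of all genes lower and 7.84% higher. In Mts24-positive cells 23 members were lower and 1 was higher, beside 7.04% and 6.48% of all genes. The median difference of the members was -0.999 for CD34 and -1.46 for Mts24, where the median over all genes was -0.01 and 0.00. The same 20 genes were lower in both positive fractions, 4 passed for Mts24 and not for CD34, and 13 passed in neither. In 24 members all 4 negative arrays lay above all 4 positive arrays, an order that 10.8% of all genes showed; the opposite order was seen in 0 members and in 8.17% of all genes. In such mixed-cell samples, fewer cells of a type and less RNA per cell cannot be told apart.

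**Figure D1:**
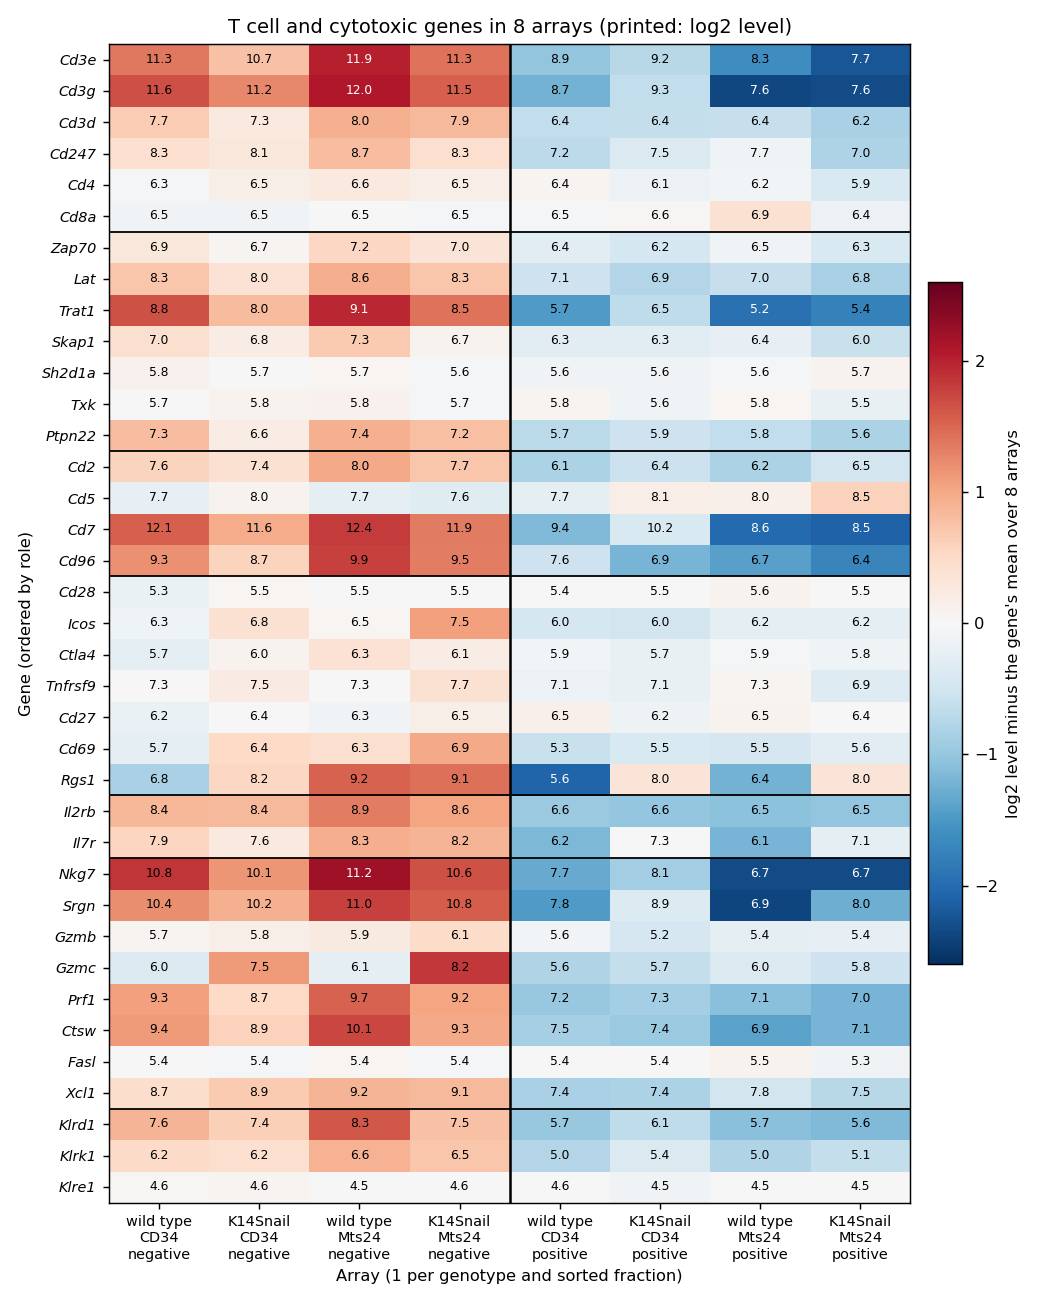
Log2 level of the 37 measured members (rows, ordered by role) in each of the 8 arrays (columns, 1 array each); the number is the level and the colour its distance from that gene's mean over the 8 arrays. The 4 negative-fraction arrays on the left are high for the CD3 chains, Trat1, Cd7, Cd96, Nkg7, Srgn, Prf1 and Ctsw, while Cd4, Cd8a, Cd28, Fasl and Klre1 hardly vary.

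All 4 measured CD3 chains were lower in both positive fractions. Cd3e, a CD3 signalling chain (probe set 10593024), was at 11.29 in wild type and 10.68 in K14Snail CD34-negative cells, at 11.94 and 11.33 in Mts24-negative cells, at 8.88 and 9.20 in CD34-positive cells, and at 8.30 and 7.69 in Mts24-positive cells. Every negative array lay above every positive one. Cd3e was 3.86-fold lower in the CD34-positive fraction (-1.95 ± 0.24, adjusted p = 0.0027 by limma) and 12.5-fold lower in the Mts24-positive fraction (-3.64 ± 0.24, adjusted p = 7.2e-04). Cd3g (probe set 10593015), its partner chain, read 11.61 and 11.18 in CD34-negative, 12.00 and 11.47 in Mts24-negative, 8.69 and 9.29 in CD34-positive, and 7.56 and 7.60 in Mts24-positive cells, wild type first. It was 5.27-fold lower with CD34 (-2.40 ± 0.26, adjusted p = 0.0017) and 17.8-fold lower with Mts24 (-4.16 ± 0.26, adjusted p = 6.2e-04). The lowest negative array of Cd3g, 11.18, was above its highest positive array, 9.29.

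Cd3d and Cd247, the other signalling chains measured, showed smaller differences at lower readings. Cd3d was at 7.69 and 7.28 in CD34-negative, 7.96 and 7.88 in Mts24-negative, 6.40 and 6.41 in CD34-positive, and 6.44 and 6.19 in Mts24-positive cells, wild type first. Its positive arrays lay at the level of the other-organ genes, and it fell, with log2 differences of -1.08 (SE 0.12, adjusted p = 0.0020) and -1.60 (SE 0.12, adjusted p = 0.0011). Cd247, the zeta chain, was at 8.28 and 8.14, 8.66 and 8.29, 7.18 and 7.48, and 7.74 and 7.05 in the same order of fractions. The negative and positive arrays of Cd247 did not overlap, and the differences were -0.88 ± 0.22 for CD34 (adjusted p = 0.040) and -1.08 ± 0.22 for Mts24 (adjusted p = 0.022). The CD34 call of Cd247 was lost without the wild type CD34-negative array (-0.93, adjusted p = 0.160), the K14Snail CD34-negative array (-0.82, adjusted p = 0.208), the wild type CD34-positive array (-0.53, adjusted p = 0.153) or either Mts24-negative array (-0.88, adjusted p = 0.069), and with the pool as a random block (-0.88, adjusted p = 0.057). Its Mts24 call was lost without the K14Snail Mts24-positive array (-0.77, adjusted p = 0.132), the K14Snail Mts24-negative array (-1.17, adjusted p = 0.107) or the wild type Mts24-negative array (-0.99, adjusted p = 0.141).

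Neither T cell coreceptor passed the test. Cd4, the coreceptor of helper T cells, ranged from 5.91 to 6.56 over the 8 arrays, and Cd8a, that of cytotoxic T cells, from 6.40 to 6.94. Both stayed within the background range in every array. The differences were -0.11 ± 0.13 and -0.44 ± 0.13 for Cd4 and 0.08 ± 0.16 and 0.14 ± 0.16 for Cd8a, CD34 first, and the Mts24 difference of Cd4 passed only after quantile normalization was repeated (-0.43, adjusted p = 0.047). At such readings these probe sets do not show whether the transcripts are absent.

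**Figure D2:**
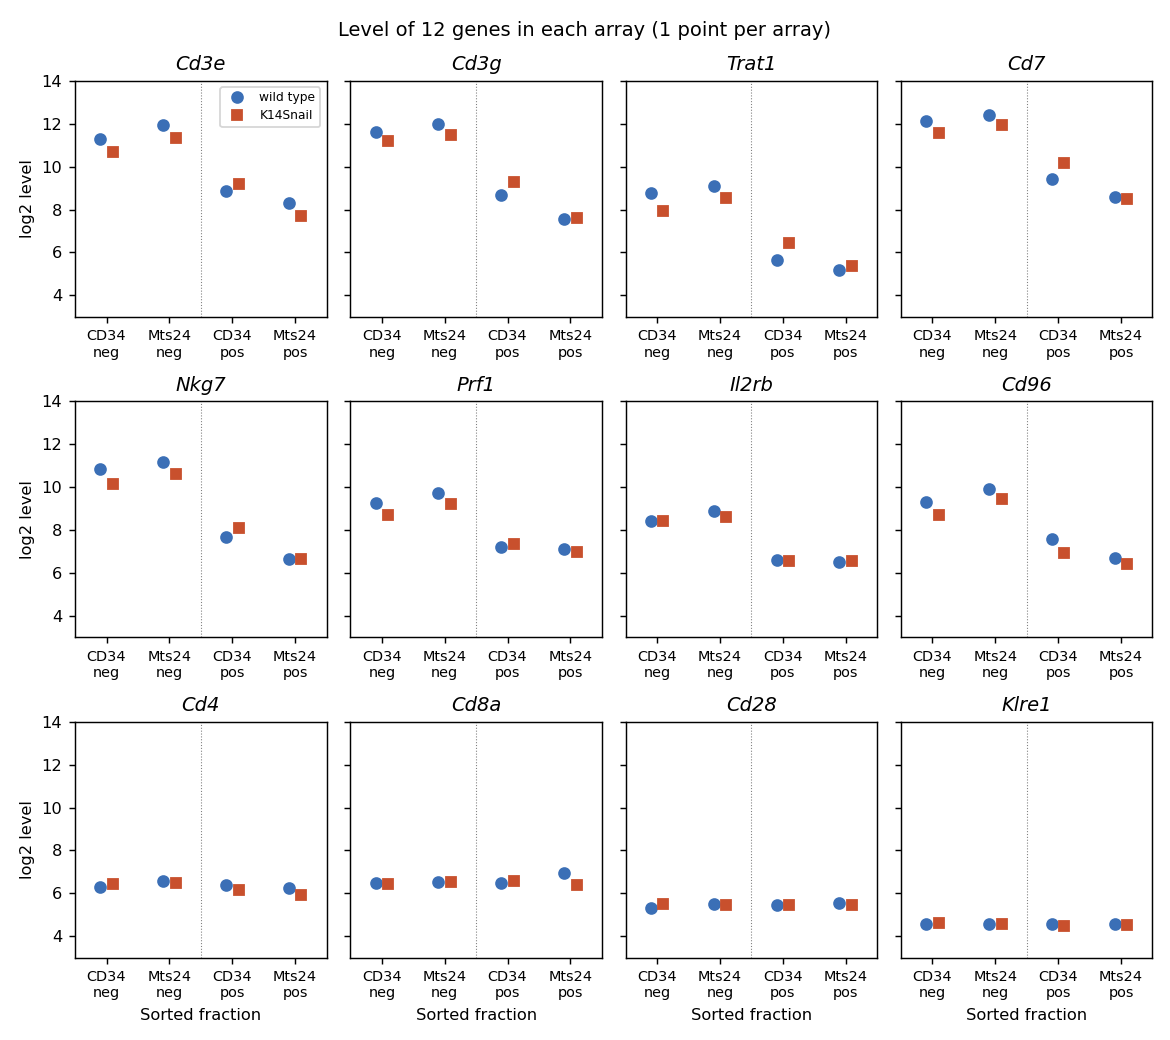
Log2 level (y axis) of 12 members in the 4 sorted fractions (x axis), 1 point per array, wild type as circles and K14Snail as squares. The upper 8 genes are high in both negative fractions of both genotypes and low in the positive ones, while Cd4, Cd8a, Cd28 and Klre1 stay between 4.45 and 6.94 in all arrays.

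Of the 7 measured genes of proximal receptor signalling, 5 were lower in both positive fractions and Sh2d1a and Txk passed in neither. Trat1, an adapter that associates with the T cell receptor, was at 8.78 and 7.95 in CD34-negative, 9.08 and 8.55 in Mts24-negative, 5.66 and 6.46 in CD34-positive, and 5.18 and 5.36 in Mts24-positive cells, wild type first. The Trat1 groups did not overlap, and its positive arrays lay within the background range. Trat1 was 4.95-fold lower with CD34 (-2.31 ± 0.36, adjusted p = 0.0072) and 11.6-fold lower with Mts24 (-3.54 ± 0.36, adjusted p = 0.0025). With the wild type CD34-negative array left out, its CD34 difference was -1.82 (adjusted p = 0.060), and it was -2.91 without the K14Snail and -1.71 without the wild type CD34-positive array.

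Lat, the membrane adapter phosphorylated by Zap70, was at 8.33 and 8.00 in CD34-negative, 8.57 and 8.33 in Mts24-negative, 7.08 and 6.85 in CD34-positive, and 7.01 and 6.77 in Mts24-positive cells. All negative arrays of Lat were above 7.90 and all positive ones below it, with differences of -1.20 ± 0.09 (adjusted p = 4.0e-04) and -1.56 ± 0.09 (adjusted p = 6.1e-04). Ptpn22, a phosphatase that restrains receptor signalling, was at 7.25 and 6.65, 7.38 and 7.24, 5.74 and 5.90, and 5.82 and 5.62 in the same order, and fell, with log2 differences of -1.13 (adjusted p = 0.0067) and -1.59 (adjusted p = 0.0030). Zap70, the kinase recruited to CD247, was at 6.94 and 6.72, 7.19 and 6.99, 6.35 and 6.19, and 6.55 and 6.25. Its arrays all lay within the background range, yet the groups did not overlap, and it fell, with log2 differences of -0.56 (adjusted p = 0.0078) and -0.69 (adjusted p = 0.0052). Skap1, an adapter in T cell adhesion, was at 7.001 and 6.79, 7.27 and 6.68, 6.32 and 6.29, and 6.38 and 6.01, and fell, with log2 differences of -0.59 (adjusted p = 0.037) and -0.78 (adjusted p = 0.016). Sh2d1a, an adapter of SLAM family receptors, ranged from 5.57 to 5.77 and Txk, a Tec family kinase, from 5.52 to 5.83.

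Calls of Zap70 and Skap1 were lost without some of the arrays. With the wild type CD34-negative array left out, the CD34 difference was -0.56 for Zap70 (adjusted p = 0.058) and -0.65 for Skap1 (adjusted p = 0.129), and without the K14Snail CD34-negative array it was -0.56 (adjusted p = 0.058) and -0.53 (adjusted p = 0.204). For Skap1 it was also not past without the wild type CD34-positive array (-0.41, adjusted p = 0.188) or without either Mts24-positive array (-0.59, adjusted p = 0.067), nor with the pool as a random block (adjusted p = 0.052). The Mts24 difference was not past without the K14Snail Mts24-negative array for Zap70 (-0.67, adjusted p = 0.059). For Skap1 it was not past without the wild type Mts24-negative array (-0.58, adjusted p = 0.113), the K14Snail Mts24-positive array (-0.73, adjusted p = 0.114) or the wild type Mts24-positive array (-0.83, adjusted p = 0.082).

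Of the 4 surface antigens, Cd7, Cd96 and Cd2 were lower in both positive fractions and Cd5 went the other way with Mts24. Cd7, an antigen of T and NK cells, was at 12.15 and 11.57 in CD34-negative, 12.41 and 11.95 in Mts24-negative, 9.45 and 10.19 in CD34-positive, and 8.57 and 8.50 in Mts24-positive cells, wild type first. Cd7 stayed above the background range even where it was lowest. It was 4.10-fold lower with CD34 (-2.04 ± 0.30, adjusted p = 0.0056) and 12.5-fold lower with Mts24 (-3.64 ± 0.30, adjusted p = 0.0013). Cd96, a receptor for the poliovirus receptor Pvr, was at 9.32 and 8.72, 9.91 and 9.47, 7.59 and 6.92, and 6.72 and 6.41 in the same order. Its groups did not overlap, and it fell, with log2 differences of -1.76 (SE 0.12, adjusted p = 2.8e-04) and -3.13 (SE 0.12, adjusted p = 1.8e-04).

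Cd2, an adhesion receptor for Cd48, was at 7.55 and 7.37, 7.95 and 7.70, 6.14 and 6.41, and 6.16 and 6.50 in the same order, with no overlap, and fell, with log2 differences of -1.18 (adjusted p = 0.0050) and -1.498 (adjusted p = 0.0033). With the wild type CD34-negative array left out, the CD34 call was lost for Cd7 (-1.71, adjusted p = 0.058) and Cd2 (-1.03, adjusted p = 0.054). Cd5, an inhibitory co-receptor of T cells, was at 7.69 and 8.01 in CD34-negative, 7.67 and 7.60 in Mts24-negative, 7.69 and 8.08 in CD34-positive, and 8.05 and 8.51 in Mts24-positive cells. The Mts24-positive arrays of Cd5 lay above the Mts24-negative ones, by 0.64 ± 0.14 (adjusted p = 0.030), while the CD34 fractions differed by 0.03 ± 0.14. The Cd5 call did not pass in 5 of the 8 fits that left out 1 array: without the K14Snail Mts24-negative array (0.41, adjusted p = 0.192), the K14Snail Mts24-positive array (0.52, adjusted p = 0.190), the wild type Mts24-positive array (0.77, adjusted p = 0.080) or either CD34-negative array (0.64, adjusted p = 0.059). With the pool as a fixed term its adjusted p was 0.055.

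Of the costimulatory and activation genes, 0 of 7 passed for CD34 in the main fit and Cd69 passed for Mts24. Cd69, an early activation antigen that also marks resident T cells, was at 5.66 and 6.42 in CD34-negative, 6.31 and 6.88 in Mts24-negative, 5.33 and 5.50 in CD34-positive, and 5.47 and 5.63 in Mts24-positive cells, wild type first. All its arrays lay within the background range and the groups were close without overlap, with differences of -0.63 ± 0.17 (adjusted p = 0.051) and -1.05 ± 0.17 (adjusted p = 0.0099). By limma the CD34 difference of Cd69 passed with median centring (-0.69, adjusted p = 0.035) and quantile normalization repeated (-0.63, adjusted p = 0.034). It also passed with an intensity trend (-0.63, adjusted p = 0.0499). The Mts24 call of Cd69 was lost without the K14Snail Mts24-negative (-0.95, adjusted p = 0.092), the K14Snail Mts24-positive (-0.88, adjusted p = 0.081) or the wild type Mts24-negative array (-1.15, adjusted p = 0.052). Rgs1, a regulator of G protein signalling in lymphocytes and myeloid cells, ranged most widely of the 7, from 5.59 to 9.21, and its negative and positive arrays overlapped. Its differences were -0.73 ± 0.50 (adjusted p = 0.462) and -1.94 ± 0.50 (adjusted p = 0.052), and that with Mts24 passed in 6 alternative settings, among them median centring (-1.99, adjusted p = 0.045) and the fit without the K14Snail Mts24-negative array (-2.88, adjusted p = 0.016). Icos, an inducible costimulator, ranged from 5.97 to 7.52 and did not pass (-0.60 ± 0.25 and -0.79 ± 0.25), except with Mts24 when the wild type Mts24-negative array was left out (-1.21, adjusted p = 0.037). The inhibitory receptor Ctla4 (5.67 to 6.31), the costimulators Cd28 (5.29 to 5.56) and Cd27 (6.20 to 6.51) and the TNF receptor Tnfrsf9 (6.94 to 7.66) stayed within the background range and passed in neither contrast.

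Both cytokine receptors were depleted, Il2rb in both positive fractions and Il7r in the Mts24-positive one. Il2rb, the chain through which interleukins 2 and 15 signal, was at 8.43 and 8.42 in CD34-negative, 8.91 and 8.59 in Mts24-negative, 6.60 and 6.57 in CD34-positive, and 6.51 and 6.54 in Mts24-positive cells, wild type first. The 4 positive arrays agreed within 0.1 and lay below every negative array. Il2rb was 3.57-fold lower with CD34 (-1.84 ± 0.11, adjusted p = 2.2e-04) and 4.68-fold lower with Mts24 (-2.23 ± 0.11, adjusted p = 5.1e-04). Il7r, the interleukin 7 receptor chain, was at 7.88 and 7.58, 8.26 and 8.21, 6.15 and 7.31, and 6.11 and 7.10 in the same order. The 2 K14Snail positive arrays of Il7r stood above the 2 wild type ones, and the differences were -0.999 ± 0.36 (adjusted p = 0.130) and -1.63 ± 0.36 (adjusted p = 0.030). Its Mts24 call was lost without the wild type Mts24-negative (-1.30, adjusted p = 0.188), wild type Mts24-positive (-1.27, adjusted p = 0.177), K14Snail Mts24-negative (-1.97, adjusted p = 0.083) or K14Snail Mts24-positive array (-1.99, adjusted p = 0.079), and with the pool as a fixed term (-1.63, adjusted p = 0.067).

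Among the 8 granule and effector genes, Nkg7, Srgn, Prf1, Ctsw and Xcl1 were lower in both positive fractions, and Gzmb in the Mts24-positive one. Nkg7, a membrane protein of cytotoxic granules, was at 10.85 and 10.13 in CD34-negative, 11.20 and 10.64 in Mts24-negative, 7.67 and 8.09 in CD34-positive, and 6.67 and 6.65 in Mts24-positive cells, wild type first. Its lowest negative array, 10.13, stood well above its highest positive array, 8.09. Nkg7 was 6.11-fold lower with CD34 (-2.61 ± 0.26, adjusted p = 0.0013) and 19.1-fold lower with Mts24 (-4.25 ± 0.26, adjusted p = 6.1e-04), the largest difference of any member in each contrast. Prf1, the pore-forming perforin, was at 9.27 and 8.72, 9.74 and 9.22, 7.22 and 7.33, and 7.12 and 6.99 in the same order. It fell, with log2 differences of -1.73 (SE 0.17, adjusted p = 0.0013) and -2.43 (SE 0.17, adjusted p = 9.3e-04), with no overlap.

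Srgn, the proteoglycan core of secretory granules in lymphoid and myeloid cells, was at 10.45 and 10.18, 11.02 and 10.82, 7.78 and 8.90, and 6.86 and 7.99 in the same order. Its K14Snail positive arrays lay above its wild type ones, and it fell, with log2 differences of -1.97 (SE 0.39, adjusted p = 0.017) and -3.50 (SE 0.39, adjusted p = 0.0031). Without the wild type CD34-negative array its CD34 difference was -1.496 (adjusted p = 0.131), and without the wild type CD34-positive array -1.52 (adjusted p = 0.071). Ctsw, a cathepsin of cytotoxic lymphocytes, was at 9.43 and 8.93, 10.06 and 9.31, 7.45 and 7.36, and 6.94 and 7.12, and fell, with log2 differences of -1.78 (adjusted p = 0.0027) and -2.66 (adjusted p = 0.0012). Xcl1, a chemokine that attracts cross-presenting dendritic cells, was at 8.72 and 8.94, 9.15 and 9.11, 7.43 and 7.45, and 7.79 and 7.55. It fell by a like amount in both fractions, with differences of -1.40 (SE 0.12, adjusted p = 7.9e-04) and -1.46 (SE 0.12, adjusted p = 0.0014).

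Of the 2 granzymes, Gzmb passed with Mts24 and Gzmc in neither contrast. Gzmb, the main granzyme of activated killer cells, ranged from 5.21 to 6.12, within the background range throughout, and its Mts24 difference of -0.57 ± 0.15 (adjusted p = 0.049) was not past in 6 of the 8 fits that left out 1 array. The fits that kept it were those without a CD34-positive array; the others gave -0.40 to -0.74, with adjusted p between 0.085 and 0.342, the largest without the K14Snail Mts24-negative array. With the pool as a fixed term, the pool as a random block and quantile normalization repeated, its adjusted p was 0.063, 0.061 and 0.053. Gzmc, a neighbour of Gzmb on chromosome 14, was at 5.97 and 7.45 in CD34-negative, 6.10 and 8.19 in Mts24-negative, 5.57 and 5.73 in CD34-positive, and 5.98 and 5.82 in Mts24-positive cells, wild type first. Its highest readings were the 2 K14Snail negative arrays, and neither marker contrast passed (-1.06 ± 0.52 and -1.24 ± 0.52). Close paralogues of the granzyme family can share probe signal. Fasl, the death receptor ligand, ranged from 5.32 to 5.50.

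Of the 3 NK-type receptors, Klrd1 and Klrk1 were lower in both positive fractions and Klre1 did not vary. Klrd1 (CD94), a receptor for nonclassical class I molecules, was at 7.61 and 7.35 in CD34-negative, 8.34 and 7.49 in Mts24-negative, 5.74 and 6.07 in CD34-positive, and 5.65 and 5.59 in Mts24-positive cells, wild type first. It fell, with log2 differences of -1.58 (SE 0.25, adjusted p = 0.0073) and -2.29 (SE 0.25, adjusted p = 0.0030), and every negative array lay above every positive one. Klrk1 (NKG2D), the receptor for stress-induced ligands on keratinocytes, was at 6.25 and 6.17, 6.64 and 6.45, 4.98 and 5.36, and 4.95 and 5.12. It fell, with log2 differences of -1.04 (adjusted p = 0.0049) and -1.51 (adjusted p = 0.0022) with no overlap, although all its arrays lay within the background range. Klre1 ranged from 4.45 to 4.62; these 3 genes are neighbours on chromosome 6 with 0 protein-coding genes between them. Without the wild type CD34-negative array the CD34 call was lost for Klrd1 (-1.55, adjusted p = 0.070) and Klrk1 (-0.94, adjusted p = 0.054), and Klrd1 also lost it without the K14Snail CD34-negative array (-1.61, adjusted p = 0.062).

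**Figure D3:**
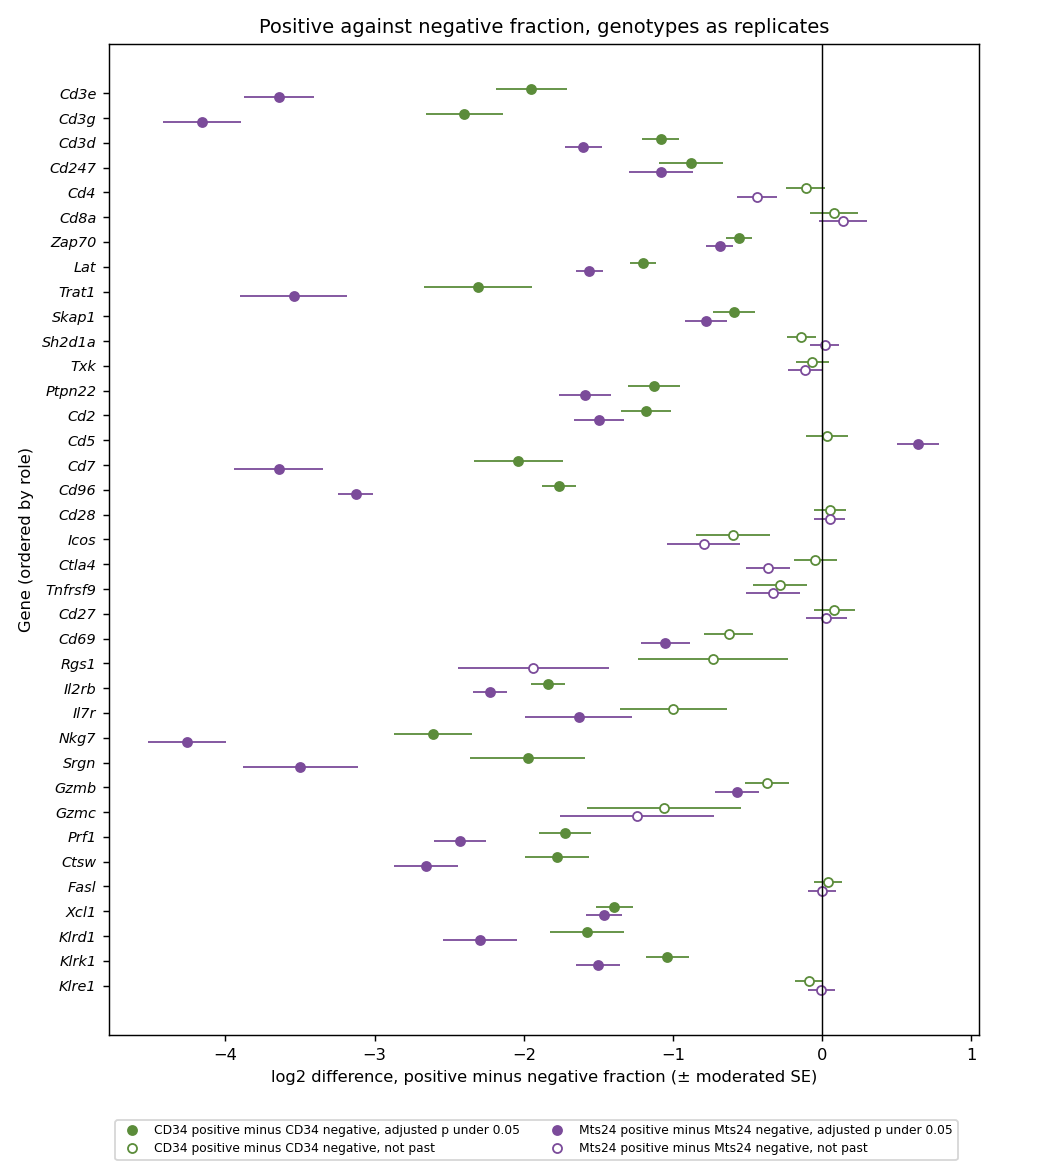
Difference between positive and negative fraction (x axis, log2, points with moderated SE) for the 37 measured members (y axis, ordered by role), CD34 in green and Mts24 in purple; filled points had an adjusted p under 0.05. Filled points lie left of 0 for 20 members with CD34 and 23 with Mts24, and the one to the right is Cd5 with Mts24.

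Over all groups, 11 of the 20 CD34 calls and 17 of the 24 Mts24 calls passed in every setting fitted. Without the wild type CD34-negative array 11 of the 20 CD34 calls were kept, the fewest of any array; between 16 and 20 were kept without any other. For Mts24 between 18 and 24 of the 24 calls were kept.

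The depletion was numerically deeper in the Mts24 than in the CD34 comparison for most members, and the test of that difference passed for Cd96. The CD34 difference less the Mts24 difference was above 0 for 33 of the 37 members (median 0.33, against 0.00 over all genes). Cd96 passed, at 1.36 ± 0.16 (adjusted p = 0.012), where 1.55% of all genes passed in that direction. This call was lost without any 1 of the 4 negative arrays (adjusted p 0.058 to 0.076, values 1.30 to 1.43). Of the others, Cd3e (1.69 ± 0.33, adjusted p = 0.059), Cd3g (1.76 ± 0.37, adjusted p = 0.069) and Nkg7 (1.64 ± 0.37, adjusted p = 0.087) were not past. Without the wild type CD34-positive array Cd3e (2.15, adjusted p = 0.0047), Cd3g (2.21, adjusted p = 0.011), Cd7 (2.17, adjusted p = 0.0096) and Nkg7 (2.07, adjusted p = 0.019) passed too, and without the K14Snail CD34-positive array Cd3e (1.23, adjusted p = 0.0098) and Cd3g (1.31, adjusted p = 0.036).

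Set directly against each other, the CD34-positive fraction held more of 3 members than the Mts24-positive fraction: Cd3g by 1.42 ± 0.26 (adjusted p = 0.027), Nkg7 by 1.22 ± 0.26 (adjusted p = 0.044) and Cd96 by 0.69 ± 0.12 (adjusted p = 0.020). In this direction 4.27% of all genes passed. Without the wild type Mts24-positive array none of these 3 passed (adjusted p 0.158, 0.229 and 0.110), nor without the K14Snail one (0.153, 0.176 and 0.058). Nkg7 was also not past without any other single array except the wild type CD34-positive one, lowest at 0.79 (adjusted p = 0.111) without the K14Snail CD34-positive array. Cd96 was not past without the wild type CD34-positive array (0.58, adjusted p = 0.085), nor Nkg7 after quantile normalization was repeated (1.17, adjusted p = 0.062). Between the negative fractions 0 of 37 members differed by limma, where 0.0351% of all genes did. An unadjusted p under 0.05 was found for 11 members, beside 12.9% of all genes. In the CD34-negative arrays 33 members read lower (median -0.34, against 0.00 over all genes). The fractions of these comparisons also differ in pool and selection kit, which cannot be told apart from the marker.

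No member passed the test of K14Snail against wild type over the 4 fractions (0 of 37), beside 0.316% of all genes. At an unadjusted p under 0.05 there were 8 members, beside 15.6% of all genes. The smallest adjusted p was that of Cd96, lower in K14Snail in all 4 fractions at -0.60, -0.68, -0.44 and -0.31 (the 2 CD34 fractions, negative first, then the 2 Mts24 fractions), for a mean of -0.51 ± 0.08 (adjusted p = 0.074). With the pool as a random block that adjusted p was 0.0499. The correlation within pools in that fit was negative (-0.126), and 175 of all genes were called there, against 63 in the main fit. Zap70, Lat and Skap1 were also lower in K14Snail in all 4 fractions, which gives 4 of 37 members, beside 13% of all genes; Cd69 was higher in all 4, an order seen in 12.3% of all genes. The other members at an unadjusted p under 0.05 were Cd5 (0.27 ± 0.10), Gzmc (0.89 ± 0.36) and Rgs1 (1.32 ± 0.36), none with an adjusted p under 0.189.

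Within single fractions there was 1 array a side and no test. Most members read lower in K14Snail in the CD34-negative (23 of 37), Mts24-negative (30) and Mts24-positive (23) fractions, and 14 did in the CD34-positive fraction. The member medians were -0.11, -0.15, -0.07 and 0.02. Over all genes the medians were 0.03, -0.03, -0.03 and -0.03 in the same order. Differences of at least 1 were all upward. In the CD34-negative fraction they were Gzmc (1.48) and Rgs1 (1.38), beside 0.286% of all genes; in the Mts24-negative fraction Gzmc (2.09) and Icos (1.00), beside 0.316%. In the CD34-positive fraction they were Rgs1 (2.42), Il7r (1.15) and Srgn (1.12), beside 1.87% of all genes, and in the Mts24-positive fraction Rgs1 (1.57) and Srgn (1.13), beside 0.963%. Gzmc was thus higher by over 1 in both negative fractions, and gave 0.16 and -0.16 in the CD34-positive and Mts24-positive ones. Icos reached 1.00 in Mts24-negative cells alone, and gave 0.51 in the CD34-negative fraction; the CD34-positive value was -0.03 and the Mts24-positive one 0.01. Srgn gave -0.27 and -0.21 in the CD34-negative and Mts24-negative fractions. Il7r gave -0.30 and -0.05 there, and 0.99 in Mts24-positive cells.

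**Figure D4:**
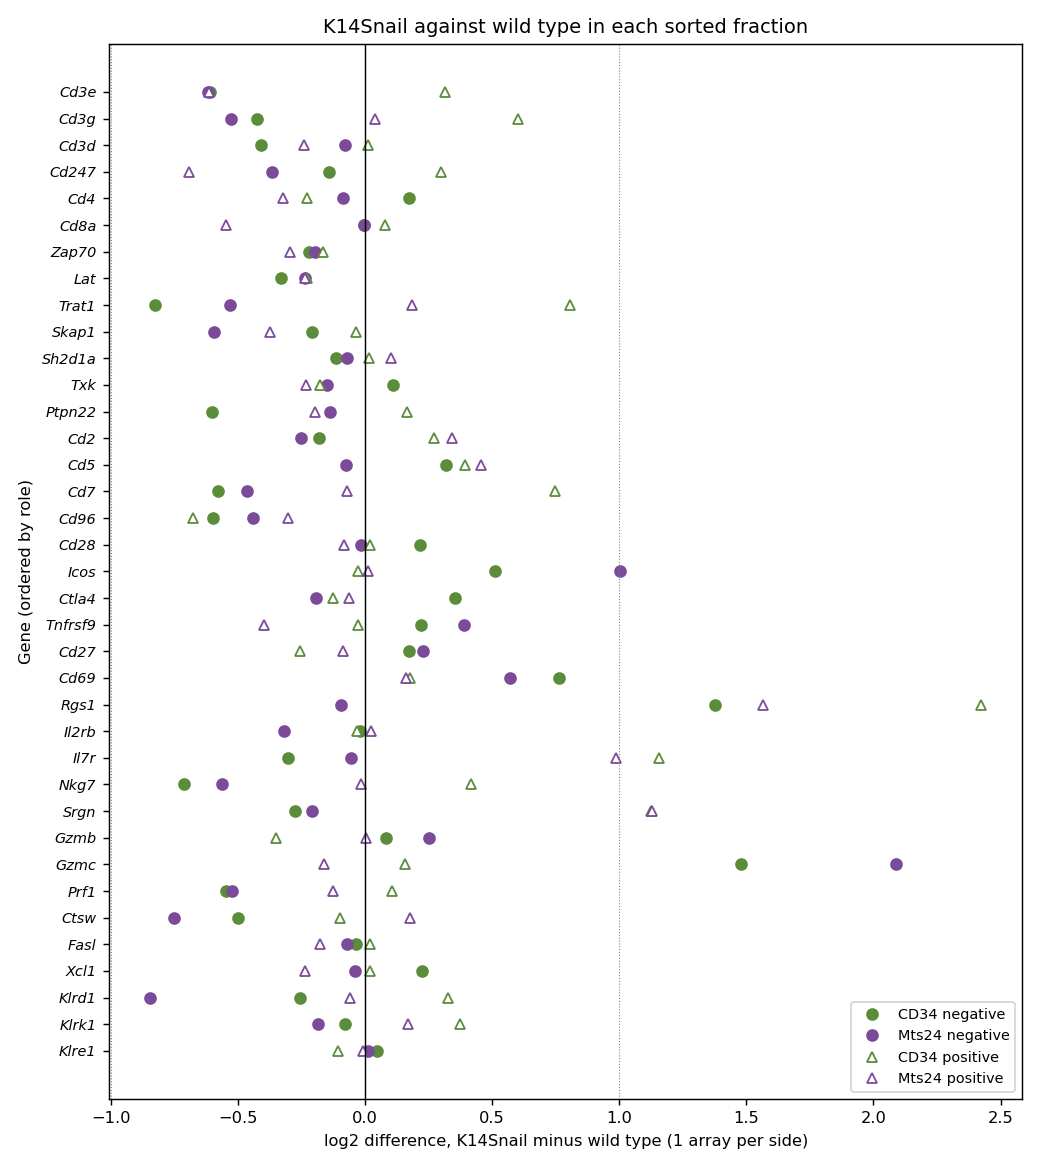
K14Snail minus wild type (x axis, log2) for each of the 37 measured members (y axis) in the 4 fractions, 1 array a side; filled circles are negative and open triangles positive fractions, dotted lines mark differences of 1. Gzmc reaches 1.48 and 2.09 in the CD34-negative and Mts24-negative fractions and Icos 1.00 in the Mts24-negative one, Srgn reaches 1.12 and 1.13 in positive fractions, and the CD3 chains lie between -0.70 and 0.60.

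The test of that contrast, the K14Snail difference in positive less that in negative fractions, passed for 0 of 37 members and for 0.00502% of all genes, which is the lysozyme gene Lyz2 alone. This test had 2 residual degrees of freedom, and 1 with any array left out. Leaving out the wild type or the K14Snail array of a fraction gave the same fit. With all 8 arrays, 17 members had an unadjusted p under 0.05, beside 8.01% of all genes. Srgn gave 1.37 ± 0.13 (adjusted p = 0.074), Il7r 1.25 ± 0.16 (adjusted p = 0.112), Gzmc -1.79 ± 0.24 (adjusted p = 0.118), Trat1 1.17 ± 0.24 (adjusted p = 0.254), Nkg7 0.84 ± 0.18 (adjusted p = 0.282), Icos -0.77 ± 0.19 (adjusted p = 0.342) and Cd3g 0.79 ± 0.21 (adjusted p = 0.367). The count changed with the arrays used: without either CD34-positive array Srgn and Il7r passed upward and Gzmc downward, beside 0.471% and 0.206% of all genes. Without either Mts24-positive array 7 members passed upward, namely Srgn, Il7r, Trat1, Nkg7, Cd3g, Cd3e and Cd7, and Gzmc passed downward, beside 1.92% and 1.82% of all genes; the calls rose over all genes too, from 1 to 746.

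Markers of myeloid cells moved in the same arrays. The summed linear signal of 20 myeloid and Langerhans cell markers was 9238 to 14340 in the negative arrays, 4075 to 4200 in the wild type positive arrays and 10134 to 11628 in the K14Snail positive arrays. Among them Cd74 was 1.83 and 1.94 higher in K14Snail than in wild type CD34-positive and Mts24-positive cells, Csf1r 1.49 and 1.27 higher, and Lyz2 3.32 and 3.22 higher. The 4 CD3 chains with Cd4 and Cd8a summed to 4579 to 8874, 1003 to 1289 and 750 to 1644 in the same 3 sets of arrays. All 37 members summed to 15003 to 26678, 4006 to 4776 and 4062 to 6242. Such sums lean on the genes with the highest readings, such as Cd74 (10.05 to 12.37). Of the 20 myeloid markers, 8 read at least 1 higher in K14Snail than in wild type CD34-positive cells, and 7 in Mts24-positive cells. The shares of all genes were 1.87% and 0.963%. Srgn and Rgs1 are expressed by myeloid cells as well as by lymphocytes, and the part of myeloid cells in their K14Snail differences was not tested.

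**Figure D5:**
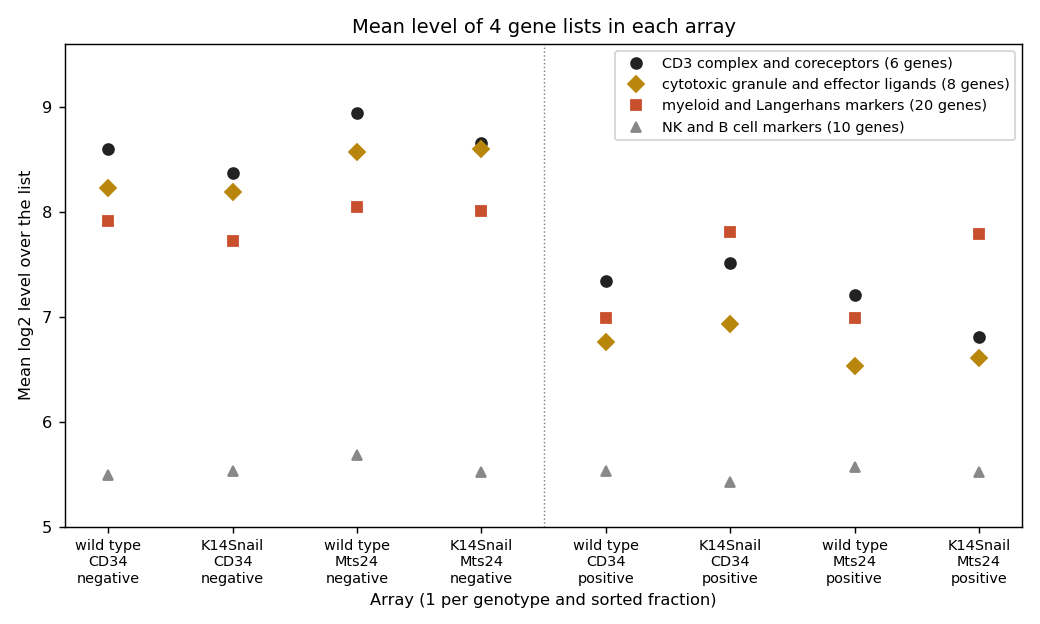
Mean log2 level (y axis) of 4 gene lists in each of the 8 arrays (x axis, 1 array each). The CD3 and cytotoxic lists are high in the 4 negative arrays and low in the 4 positive ones of both genotypes, the myeloid list is low in the 2 wild type positive arrays alone (6.99 in both), and the NK and B cell list stays between 5.42 and 5.68.

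Other lymphocyte genes of the same pathways showed which part of the T cell programme was visible. Over all genes 6.92% were lower and 7.84% higher with CD34, and 7.04% and 6.48% with Mts24. Of 26 measured genes of T cell signalling and adhesion outside the members, 11 were lower with CD34, 14 with Mts24, and 0 were higher in either contrast. The 6 past the threshold with the largest difference in either contrast are given. Itgae, the integrin chain that holds T cells in epithelia (-1.86 and -2.56, CD34 first), Cd52 (-1.58 and -1.70) and the adapters Grap2 (-1.32 and -1.70) and Lcp2 (-0.91 and -1.56) passed in both contrasts. Tespa1 (-1.10 and -1.65) and the adapter Fyb (-0.63 and -1.62) passed with Mts24. Genes of gamma-delta and dendritic epidermal T cells were listed too, and the 10 measured include Itgae and the member Xcl1. Beside the same shares of all genes, 3 were lower and 1 higher with CD34, and 4 lower and 0 higher with Mts24. The one higher was Sox13, a transcription factor of gamma-delta T cells (0.50 ± 0.10, adjusted p = 0.017). Fcer1g, a signalling chain shared with myeloid cells, gave -1.61 and -2.50. The constant and variable segments of the gamma and delta receptor chains were not analysed here.

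Among 11 measured genes of regulatory and alpha-beta T cells, 4 were lower in each positive fraction, beside 6.92% and 7.04% of all genes. These were the chemokine receptors Ccr4 (-3.36 and -2.97), Cxcr6 (-1.33 and -2.15) and Ccr8 (-0.68 and -0.77), and the transcription factor Ikzf2 (-2.26 and -1.11). Foxp3, which defines regulatory T cells, ranged from 6.72 to 7.24. Tnfrsf4 and Tnfrsf18, receptors of activated T cells, were higher in Mts24-positive cells (1.65 and 1.03), beside 6.48% of all genes. Of 27 further cytotoxic genes, 1 was higher with Mts24, the granzyme gene Gzme (0.50), beside 6.48% of all genes. Gzme read 4.73 to 5.34, within the background range. Of the same 27, 6 were lower with CD34 and 6 with Mts24, beside 6.92% and 7.04% of all genes. They included Rab27a, which docks secretory granules and is also active in pigment transfer (-2.84 and -1.35), the NK-type receptor Klrb1b (-1.67 and -2.47), the transcription factor Runx3 (-1.23 and -1.81), the granule cystatin Cst7 (-1.08 and -1.88), Klrb1f (-0.71 and -1.23) and Stx11, a syntaxin of granule release (-0.52, and 0.05 with Mts24, not past).

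Defining markers of NK and B cells passed no test in the same contrasts. By limma 0 of 10 NK and B cell markers passed in either contrast, with 0 and 1 at an unadjusted p under 0.05. Over all genes 6.92% were lower and 7.84% higher with CD34, and 7.04% and 6.48% with Mts24. At such shares few of 10 genes would pass. Ncr1 ranged from 5.20 to 5.47, Klrb1c from 4.45 to 4.93, Cd79a from 4.45 to 4.81 and Ms4a1 from 4.83 to 5.24. Mast cell markers passed in 0 of 7 cases for each contrast, with 0 and 1 at an unadjusted p under 0.05. All NK, B and mast cell marker readings lay within the background range, so they do not show whether these transcripts are absent. Ptprc, the pan-leukocyte antigen CD45, fell, with log2 differences of -1.90 (adjusted p = 0.016) and -2.69 (adjusted p = 0.0064). Of the 16 pan-leukocyte genes listed, it among them, 6 were lower with CD34 and 13 with Mts24, beside 6.92% and 7.04% of all genes. Of these 16, 0 were higher, and their median differences were -0.80 and -1.27. Their part in the members' differences was not tested. Myeloid and Langerhans markers were lower in 1 of 20 cases for CD34 and in 4 for Mts24, beside the same shares of all genes.

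Partners of the members on keratinocytes and other cells were called in both directions. Of 21 measured ligands and receptors, 7 were lower and 1 higher in CD34-positive cells, beside 6.92% and 7.84% of all genes, and 5 lower and 3 higher with Mts24, beside 7.04% and 6.48%. Il15, the cytokine read by Il2rb, fell by 1.59 in CD34-positive cells (adjusted p = 0.018) and gave -0.87 with Mts24 (adjusted p = 0.137), and its presenting chain Il15ra gave -1.05 and -0.51 (adjusted p = 0.0024 and 0.040). Il7, the ligand of Il7r, was 1.80 ± 0.17 higher in Mts24-positive cells (adjusted p = 0.0019) and gave 0.17 ± 0.17 in CD34-positive cells, a difference between markers of -1.64 ± 0.24 (adjusted p = 0.023). Skint7, of the family of skin molecules that select epidermal T cells, fell by 1.64 in the CD34-positive fraction (adjusted p = 0.012). With Mts24 it gave -0.51 (adjusted p = 0.334), from -1.17 in wild type and 0.14 in K14Snail. Cd48, a ligand of Cd2, gave -1.02 and -1.11 (adjusted p = 0.048 and 0.039), and Fas, the receptor of Fasl, -1.15 and -0.22 (adjusted p = 8.6e-04 and 0.252).

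Outside these lists, the genes whose level followed the mean of Cd3e, Cd3g, Cd3d and Cd247 most closely over the 8 arrays were found among 1400 genes with a mean at or above the median of all values and an SD of at least 0.5. The closest was Kir3dl1, a killer cell immunoglobulin-like receptor (r = 0.996), at 9.36 and 8.66 in CD34-negative, 9.69 and 9.36 in Mts24-negative, 7.07 and 7.35 in CD34-positive, and 6.47 and 6.41 in Mts24-positive cells, wild type first. Then came Phactr2, Avil, Fut8, Pip4k2a, Cd37, Hpse, Ltc4s, Nsmaf and Rasgrp4, down to r = 0.978. The 8 points share 4 fractions, so these correlations describe the split into negative and positive fractions and carry no test.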

How the data were processed

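Per the labels, total RNA of 8 sorted cell samples was amplified (whole-transcript kit) and hybridised to 1-colour Affymetrix arrays. The deposited values are log2 levels per probe set that the authors made with RMA, per the submitters' processing notes; its version and the genome build are not given in the sources used here. RMA brings arrays to 1 distribution, so a difference is relative to the other genes of an array. The number of arrays limits the precision.

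Of 28874 probe sets, the platform annotation gives 21789 a single symbol, 1621 several and 5464 none. The probe set with the highest mean stood for a gene (999 genes had several), leaving 19938 genes with no filter on level. limma 3.58.1 (R 4.3.3) fitted 4 fractions and genotype (3 residual degrees of freedom), then a genotype by positive or negative fraction term (2), with Benjamini-Hochberg adjustment over all genes at 0.05; errors are moderated standard errors. The fits were tested on simulated data. Plots used Python 3.11.15 and matplotlib 3.10.9. All members were named by role; of other lists, at most 6 genes past the threshold, and the 10 genes most like the CD3 chains; myeloid, NK, B and background genes were given beside results and chosen after their values were seen, as were Foxp3 and Gzme. The members and lists were chosen with earlier results of these data known. Alternatives were 2 filters on level, quantile normalization again, median centring, an intensity trend, the pool as a random block or fixed term, the mean of a gene's probe sets, the arrays of 1 marker, and each array left out. The labels do not tie the fractions of a pool to the same mice.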

Additional observations from a re-analysis of the deposited data

Results flagged for a closer look

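Cd96 stood out because its 2 marker differences differed in a direct test: the CD34 difference less the Mts24 difference was 1.36 (adjusted p = 0.012 by limma). Of the partners of the members, Fas, the receptor of Fasl, gave -0.93 in that test (adjusted p = 0.029), falling in CD34-positive cells (-1.15 ± 0.10) more than in Mts24-positive cells (-0.22 ± 0.10). Il7 gave -1.64 (adjusted p = 0.023), being higher in Mts24-positive cells alone. Lyz2, a myeloid marker, differed in the genotype by fraction test at 2.93 ± 0.17 (adjusted p = 0.033), its K14Snail difference being 3.32 and 3.22 in the positive and 0.16 and 0.52 in the negative fractions.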

How the results depend on the processing

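The main fit was not paired, because the labels carry no replicate numbers and do not tie the fractions of a pool to the same mice. Fits with the pool as a random block or a fixed term were run too. The fixed term pairs the positive and negative array of each genotype and marker. No member's difference changed sign in any setting fitted where it was called. With genes kept by a mean level at or above the median (7.74), 10 members were lower with CD34 and 10 with Mts24, since 11 of the 37 members reach that level. A member can reach it through its negative arrays, as Prf1 did (at least 8.72 there, at most 7.33 in positive arrays). These counts are therefore partly set by the filter and are no separate support. With the pool as a random block 1 member, Cd96, was lower in K14Snail and 5 were higher in CD34-positive than Mts24-positive cells. With an intensity trend that count was also 5, and 2 members passed the difference between markers. The shares of all genes called in these marker comparisons under those settings are not given here. The random block ended the CD34 calls of Cd247 and Skap1 and the Mts24 call of Gzmb. With the pool as a fixed term the Mts24 calls of Cd5, Gzmb and Il7r were lost, so 0 members were higher with Mts24. Leaving out 1 array gave 11 to 20 members lower with CD34, 18 to 24 lower and 0 to 1 higher with Mts24, 0 to 5 past the difference between markers, 0 to 5 higher in CD34-positive than Mts24-positive cells, and 0 to 7 higher and 0 to 1 lower in the genotype by fraction test. The genes called for K14Snail against wild type numbered 63, and 175 with the random block, whose correlation was -0.126; without 1 array they numbered 8 to 57. The cause of the other shifts was not tested. Signal near the arrays' background limits the size of differences for low members.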
